A study of Homo sapiens with 36 samples.

Results

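CTCF binding after knockdown of CHD4 was set directly against CTCF binding after knockdown of MBD3, as called peaks of chromatin immunoprecipitation with sequencing (ChIP-seq). The cells were HEK293T, an established line from human embryonic kidney. The members were all peaks of the siCHD4 list and all peaks of the siMBD3 list on chromosomes 1 to 22 and X, with rows of equal chromosome, start and end counted once. They came to 25358 siCHD4 peaks and 25848 siMBD3 peaks, together 51206 of the 179333 peaks in the 6 lists of the series. A peak that overlapped a peak of the other list by at least 1 bp is called shared, and any other peak is called specific. Fold and −log10 q entered that choice only through the calling of peaks. A site just under the calling threshold in 1 list thus counts as specific to the other, so specific peaks are partly selected for weak signal.

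All cells were HEK293T transfected with small interfering RNA, which was directed against CHD4 in 1 group, against MBD3 in the other, and was the control RNA siNC in the reference group. Lists after siCHD3, siCHD5 and siMBD2 serve below as further views of the same sites. Each group had 3 CTCF immunoprecipitates and 3 inputs, and each list pooled its 3 replicates. Each condition is therefore 1 list, so replicates could not be compared and the conditions were not tested against each other. The siCHD4 and siMBD3 groups share no library by the labels, while comparisons of either with siNC share the siNC list. How far each knockdown lowered its target, and markers of the cell line, were not analysed here, since the lists hold no expression values. Shares carry exact 95% intervals by the Clopper-Pearson method, which reflect counting error and no other error.

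NuRD (nucleosome remodelling and deacetylase) joins a chromatin-remodelling helicase and histone deacetylases in 1 complex. CHD4 is an ATP-dependent helicase of the complex and moves nucleosomes. MBD3 belongs to the methyl-CpG-binding-domain family and links the deacetylase part of the complex to the helicase part, but, unlike its relative MBD2, binds methylated DNA poorly in mammals. CTCF is a zinc-finger protein that marks insulators and holds the anchors of chromatin loops, and its sites lie in short stretches kept free of nucleosomes.

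The 2 lists were of nearly equal length but came from libraries of unequal depth. Depth was read from the lowest local background of each list, solved from fold and p. It was 1.06 fragments per bp in siCHD4 and 0.374 in siMBD3, a ratio of 2.84, against 2.96 in siNC. The median summit held 26 fragments in siCHD4 and 16 in siMBD3. Median local background was 4.03 fragments in siCHD4 and 1.44 in siMBD3. Fold enrichment and −log10 q are the authors' values for each peak, and here they rank peaks within 1 list only.

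Most peaks of each list had a partner in the other, and the specific ones were nearly equal in share. In siCHD4, 8574 of 25358 peaks were specific (33.8%, interval 33.2 to 34.4), and 16784 were shared. In siMBD3, 8917 of 25848 peaks were specific (34.5%, interval 33.9 to 35.1), and 16931 were shared. These 2 shares, 33.8% and 34.5%, are the background for every subset below. Merged into regions, the lists gave 34265, of which 16774 were called in both (49.0%), 8574 in siCHD4 alone (25.02%) and 8917 in siMBD3 alone (26.0%). Near misses were few: 547 siCHD4-specific and 334 siMBD3-specific peaks had a peak of the other list within 1 kb.

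Both shares moved with depth and with the threshold. When siCHD4 pileups were scaled to the siMBD3 coverage, 18089 siCHD4 peaks still passed, and 3520 of these were specific (19.5%), while 41.1% of specific and 86.8% of shared siCHD4 peaks passed. Searched against these 18089 peaks only, 11128 of 25848 siMBD3 peaks were specific (43.1%, interval 42.4 to 43.7). The lists compared in that setting are of unequal length. With −log10 q of at least 10 in the counted list only, 13.5% of siCHD4 and 16.5% of siMBD3 peaks were specific.

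Shared peaks sat on the same positions. In the 16623 pairs in which 1 siCHD4 peak met 1 siMBD3 peak, the median distance between summits was 11 bp, and 96.9% of summits lay within 100 bp. Median widths were 254 bp in siCHD4 and 255 bp in siMBD3. The order of strength was less alike than the positions. Across these pairs Spearman's rho was 0.18 for fold, 0.47 for −log10 q, 0.79 for summit pileup and 0.88 for local background, where both values of a point come from the same site. Of the 1662 pairs in the top 10% by fold in siCHD4, 572 were also in the top 10% in siMBD3 (34.4%).

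The leading shared regions were called in all 6 lists, for all 10 pairs with the best ranks of fold in both lists. The region on chromosome 8 from 62114813 to 62115329 ranked 5 in siCHD4 (fold 60.3) and 3 in siMBD3 (fold 38.3) among the pairs. The region on chromosome 14 from 102144299 to 102144713 ranked 10 in siCHD4 (fold 56.5) and 5 in siMBD3 (fold 37.5). The peak of highest fold among the siCHD4 pairs lay on chromosome 2 from 63911402 to 63911813 (fold 81.7) and ranked 10 in siMBD3 (fold 34.6). Summits of these 3 regions lay 13, 6 and 7 bp apart. The other 7 lay on chromosomes 1, 2, 3, 6, 16 and 18, with folds down to 45.4 in siCHD4 and 30.3 in siMBD3.

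Specific peaks were mostly weak in both lists, but by fold the siCHD4-specific ones reached further into the strong part of their list. In siMBD3, the specific share fell steadily with fold, from 67.0% of the weakest decile to 9.0% of the strongest (232 of 2585 peaks, interval 7.90 to 10.1). In siCHD4 it went from 54.2% of the weakest decile to between 27.8% and 33.2% in deciles 4 to 9, and was 17.0% in the strongest (430 of 2536 peaks, interval 15.5 to 18.5). All 2536 peaks of that decile, shared and specific alike, passed at the siMBD3 coverage as well, so passing does not set the specific ones apart. Ranking by −log10 q changed that difference. The strongest decile was then 4.26% specific in siCHD4 (108 peaks, interval 3.51 to 5.12) and 5.03% in siMBD3 (130 peaks, interval 4.22 to 5.94), and in deciles 4 to 9 the share was lower in siCHD4. Fold and local background had a Spearman's rho of -0.19 over siCHD4 peaks and 0.35 over siMBD3 peaks, and local background is itself part of fold.

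**Figure D1:**
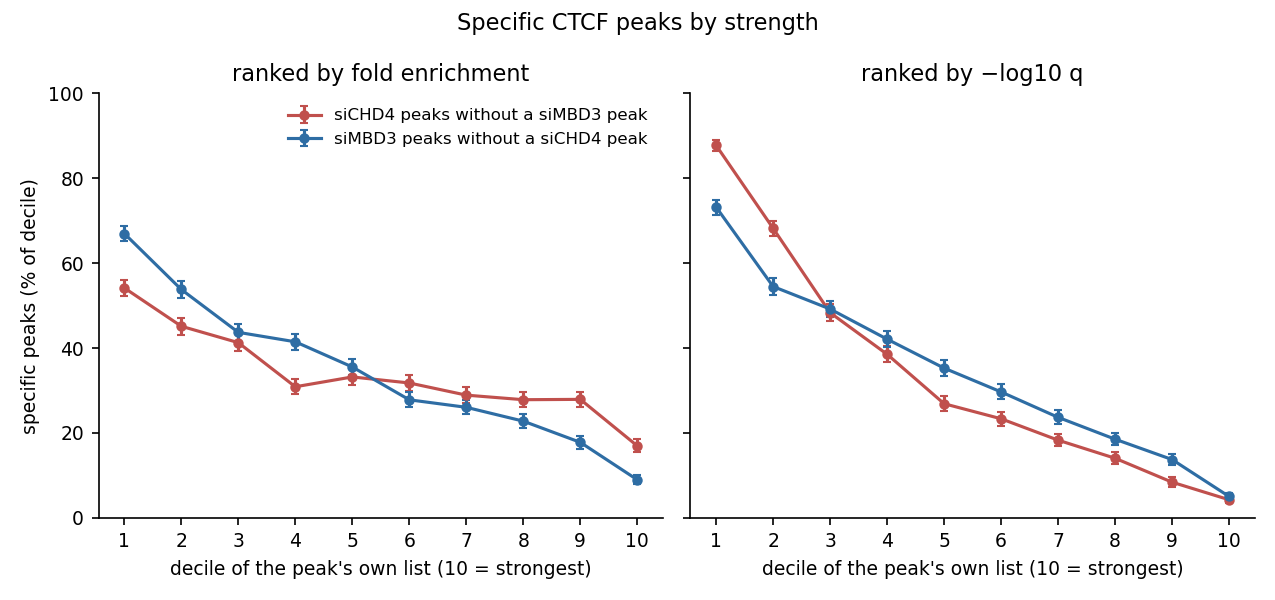
Share of peaks with no overlapping peak in the other list (y axis, % of decile) by decile of strength within each list (x axis, 10 is the strongest), ranked by fold enrichment on the left and by −log10 q on the right. Points are shares of 1 pooled list and bars exact 95% intervals; by fold the siCHD4 curve flattens and ends at 17.0%, against 9.0% in siMBD3, and by −log10 q the curves end at 4.26% and 5.03%.

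The lists differed in their wide specific peaks. Peaks over 500 bp made up 6.29% of siCHD4-specific peaks (539) and 7.16% of shared siCHD4 peaks (1202), so they were not more frequent among the specific ones. In siMBD3 they made up 0.415% of specific peaks (37) and 3.73% of shared peaks (632). In siCHD4 the specific share went down from 42.8% of peaks up to 200 bp wide to 30.3% above 250 and up to 300 bp, and up again to 41.0% above 400 and up to 500 bp (446 of 1087, interval 38.1 to 44.0). It was then 39.5% above 500 and up to 750 bp, and 26.1% above 750 and up to 1000 bp. In siMBD3 it only went down, from 54.6% of peaks up to 200 bp to 14.2% above 400 and up to 500 bp (108 of 762, interval 11.8 to 16.9). None of the 124 siMBD3 peaks above 750 and up to 1000 bp was specific (exact upper limit 2.93%), and none of the 64 wider ones (5.60%). By the simpler rule of 3 counts of the total, these zeros allow shares of up to 2.42% and 4.69%. Among siCHD4 peaks over 1 kb, 43 of 353 were specific (12.2%). Peaks with several summits, which are several neighbouring maxima in 1 called interval, made up 2.59% of siCHD4-specific and 0.112% of siMBD3-specific peaks, against 4.81% and 2.03% of shared ones. The lists also differ in coverage (1.06 against 0.374), and the part of depth in these counts was not tested.

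**Figure D2:**
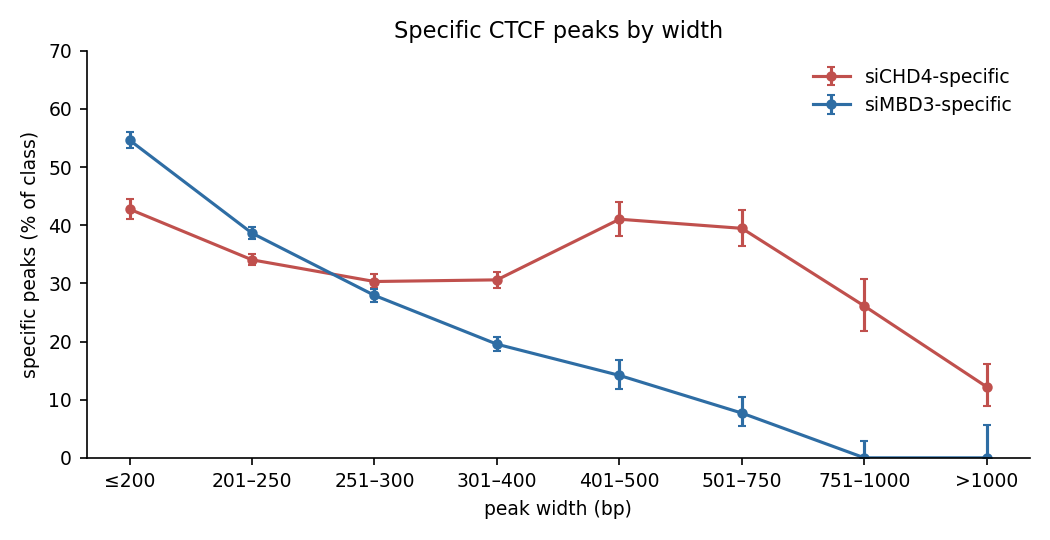
Share of specific peaks (y axis, % of class) by peak width (x axis, bp) in the siCHD4 and siMBD3 lists, with exact 95% intervals as error bars. Above 400 and up to 500 bp the siCHD4 share is 41.0% and the siMBD3 share 14.2%, and no siMBD3 peak over 750 bp is specific.

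The other 4 lists, which played no part in defining specific peaks, held these peaks at different rates. Taken over all strengths, the siCHD4-specific peaks were most often found after siCHD3: 5290 of 8574 (61.7%, interval 60.7 to 62.7) overlapped a siCHD3 peak, 4852 (56.6%, 55.5 to 57.6) a siNC peak, 3640 (42.5%, 41.4 to 43.5) a siCHD5 peak and 2900 (33.8%, 32.8 to 34.8) a siMBD2 peak. The siMBD3-specific peaks were most often found in control: 6010 of 8917 (67.4%, 66.4 to 68.4) overlapped a siNC peak, 5666 (63.5%, 62.5 to 64.5) a siCHD5 peak, 4291 (48.1%, 47.1 to 49.2) a siMBD2 peak and 4006 (44.9%, 43.9 to 46.0) a siCHD3 peak. The siCHD3 list was thus the only 1 of the 4 that held a larger share of siCHD4-specific than of siMBD3-specific peaks. Shared peaks, counted in siCHD4, were found in 96.8% of cases in siNC, 85.2% in siCHD3, 90.1% in siCHD5 and 84.9% in siMBD2. With siCHD4 scaled to the siMBD3 coverage, 2944 of 3520 siCHD4-specific peaks were in siNC (83.6%), and so were 7917 of the 11128 siMBD3 peaks with no partner among the 18089 (71.1%). That scaling removed the weak siCHD4 peaks and no siMBD3 peak. With −log10 q of 10 or more required on both sides, a peak whose partners all fell below that threshold counted as specific too. The shares in siNC were then 95.2% of 5096 siCHD4 peaks and 96.9% of 4015 siMBD3 peaks. Of these, only 1676 and 1874 had no partner of any strength.

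**Figure D3:**
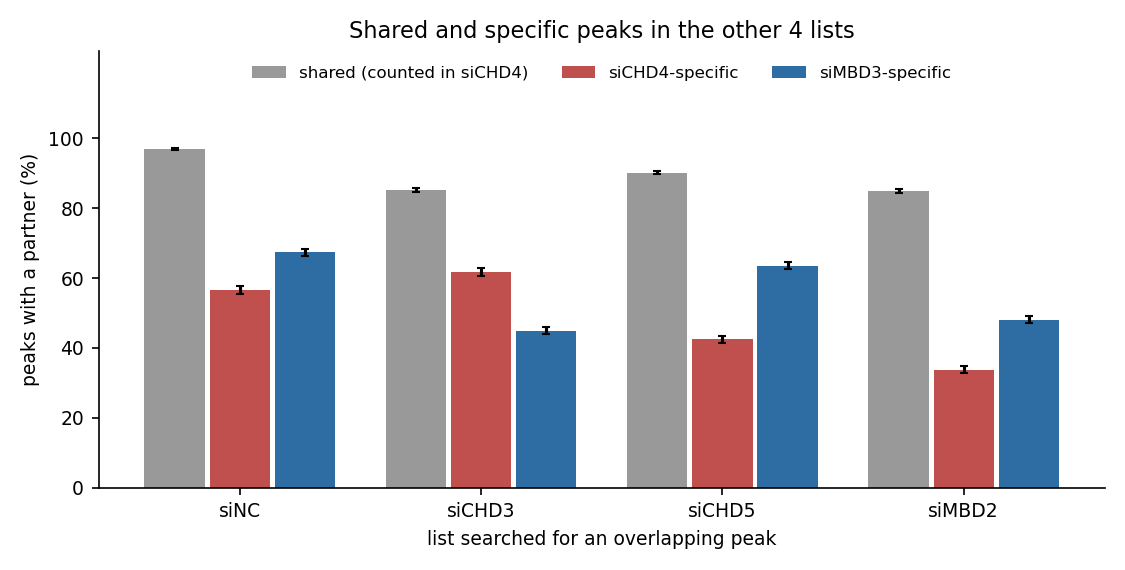
Share of peaks (y axis, %) that overlap a peak of siNC, siCHD3, siCHD5 or siMBD2 (x axis) for shared peaks and for peaks specific to siCHD4 or to siMBD3, with exact 95% intervals as error bars. siCHD4-specific peaks have a partner more often in siCHD3 (61.7% against 44.9%) and less often in siNC, siCHD5 and siMBD2 than siMBD3-specific peaks.

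Sorted by their full pattern over the 4 lists, the largest class of siCHD4-specific peaks was called in siCHD3 and in no other list, with 1855 peaks (21.6%, interval 20.8 to 22.5). The same pattern held 329 siMBD3-specific peaks (3.69%, 3.31 to 4.10). A further 991 siCHD4-specific peaks (11.6%) were called in siNC and siCHD3 but in neither siCHD5 nor siMBD2, against 179 siMBD3-specific peaks (2.01%). The largest class of siMBD3-specific peaks was called in all 4 lists, with 2535 peaks (28.4%, 27.5 to 29.4), against 1592 siCHD4-specific ones (18.6%, 17.7 to 19.4). Sites present in siNC, siCHD5 and siMBD2 but absent from siCHD3 numbered 1227 among siMBD3-specific peaks (13.8%) and 779 among siCHD4-specific peaks (9.09%). Shared peaks, counted in siCHD4, had this pattern at 10.6%, which lies between these shares. Peaks seen in none of the 4 lists were 1432 in siCHD4 (16.7%, median fold 3.88, highest 10.9) and 2008 in siMBD3 (22.5%, median fold 4.37, highest 12.8). Of shared peaks, counted in siCHD4, 70.5% were called in all 4 lists and 0.316% in none. Those in siCHD3 alone made up 1.65% of shared peaks, and those in siNC and siCHD3 only 4.14%.

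The wide siCHD4-specific peaks were nearly all held by siCHD3 too. Those called in siCHD3 but in neither siCHD5 nor siMBD2 numbered 2846, with a median width of 293 bp, and 14.2% of them were over 500 bp. The 1486 siCHD4-specific peaks called in siCHD5 but not in siCHD3 had a median width of 225 bp, and 0.606% were over 500 bp. Of all 539 siCHD4-specific peaks over 500 bp, 503 overlapped a siCHD3 peak (93.3%, interval 90.9 to 95.3), 323 a siNC peak (59.9%), 86 a siMBD2 peak (16.0%) and 53 a siCHD5 peak (9.83%, interval 7.45 to 12.7). The shared siCHD4 peaks over 500 bp were found in siCHD3 for 99.3% and in siCHD5 for 61.7%. The 430 specific peaks in the strongest fold decile of siCHD4 were also most often in siCHD3, with 379 of 430 in siCHD3 (88.1%), 362 in siNC (84.2%), 176 in siMBD2 (40.9%) and 149 in siCHD5 (34.7%). In the strongest decile of siMBD3, 221 of 232 specific peaks were in siNC (95.3%), 220 in siCHD5 (94.8%), 192 in siMBD2 (82.8%) and 176 in siCHD3 (75.9%). The siCHD3 list had a background coverage of 0.445 and siCHD5 of 1.95, and the part of depth in these rates was not tested.

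Among specific peaks with −log10 q of at least 10, most were sites that control also held, though at lower rates than shared peaks. There were 1676 such peaks in siCHD4, of which 1507 overlapped a siNC peak (89.9%, interval 88.4 to 91.3) and 1338 a siCHD3 peak (79.8%, 77.8 to 81.7), so that siNC and not siCHD3 came first at this strength. The class in siCHD3 alone was down to 103 of them (6.15%), and the largest class was that in all 4 other lists, with 721 (43.0%). There were 1874 in siMBD3, of which 1780 overlapped a siNC peak (94.98%, 93.9 to 95.9), 1380 a siCHD3 peak (73.6%), and 1141 were called in all 4 (60.9%). In siCHD4 19 and in siMBD3 21 of them were called in none of the 4 lists. Of the 10761 shared siCHD4 peaks of this strength, 99.01% overlapped a siNC peak and 91.2% a siCHD3 peak. All 4 lists held 79.6% of these shared siCHD4 peaks, siCHD3 alone held 0.520%, and 2 peaks were in none. Of the 9500 shared siMBD3 peaks of this strength, 99.33% overlapped a siNC peak and 89.8% a siCHD3 peak. All 4 lists held 84.01% of these shared siMBD3 peaks, and 1 peak was in none.

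The 10 siCHD4-specific peaks of highest fold with no siMBD3 peak within 1 kb were all called in siCHD3, 8 of them in siNC, and 3 each in siCHD5 and siMBD2. The first lay on chromosome 22 from 26956889 to 26957286 (fold 18.3, −log10 q 40.7) and was called in siNC and siCHD3. The second lay on chromosome 2 from 207101002 to 207101534 (fold 18.3, −log10 q 79.5) and was called in all 4 other lists. The third, on chromosome 19 from 20369338 to 20370282 (fold 17.5, −log10 q 40.8), was 945 bp wide and was missing from siMBD2 as well as from siMBD3. The region on chromosome 20 from 34319854 to 34320067 (fold 16.4, −log10 q 76.2) and that on chromosome X from 91931546 to 91931735 (fold 14.6, −log10 q 35.0) were called in siCHD3 and in no other list. The region on chromosome 8 from 87905172 to 87905541 (fold 14.1, −log10 q 41.1) was the only other of the 10 that all 4 lists held.

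The 10 siMBD3-specific peaks of highest fold with no siCHD4 peak within 1 kb were all called in siNC and in siCHD5, and 9 of them in all 4 other lists. The first lay on chromosome 12 from 95158041 to 95158297 (fold 17.1, −log10 q 34.6), where the summit held 33 fragments. It was followed by chromosome 11 from 117009379 to 117009799 (fold 14.5, −log10 q 25.9) and chromosome 11 from 64071804 to 64072119 (fold 14.2, −log10 q 33.9). Next were chromosome 8 from 7305771 to 7306072 (fold 13.9, −log10 q 24.9) and chromosome 15 from 43882372 to 43882690 (fold 13.7, −log10 q 29.5). The exception was chromosome 6 from 58508015 to 58508267 (fold 13.5, −log10 q 22.6), which neither siCHD3 nor siMBD2 held. In the other 9 regions siCHD4 was the only list of the 6 without a peak. Genes and features at the named positions were not analysed here, because no annotation of the hg19 build, in which all positions are given, was used.

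Control peaks met by only 1 of the lists were weaker in control than those met by both. The 16297 siNC peaks that overlapped both lists had a median siNC fold of 5.86 (quartiles 4.81 and 7.14) and a median width of 342 bp. The 4847 siNC peaks met by siCHD4 alone had a median siNC fold of 4.91 (3.91 and 6.09), and the 5997 met by siMBD3 alone had 5.05 (4.15 and 6.12), against 5.22 over all siNC peaks. Their median siNC pileups were 45 fragments for siCHD4 alone and 58 for siMBD3 alone, against 89 for both. By fold the order was the other way round in siCHD3, with a median of 6.76 for the 5031 peaks met by siCHD4 alone and 6.19 for the 3948 met by siMBD3 alone, and in siCHD5, with 6.36 and 6.26. In siMBD2 it was that of siNC, with 6.26 and 6.38. By median pileup, peaks met by siCHD4 alone were the lower in all 4 lists, with 13 against 15 fragments in siCHD3, 38 against 42 in siCHD5 and 17 against 19 in siMBD2. These folds are read within 1 list each.

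Specific peaks were slightly clustered along the chromosomes, and the densest clusters were of siCHD4-specific peaks. The next peak along the chromosome was specific after 38.2% of siCHD4-specific and 31.5% of shared siCHD4 peaks, and after 37.2% and 33.1% in siMBD3. Runs of 8 or more specific peaks in a row numbered 16 in siCHD4, with 181 peaks, and 9 in siMBD3, with 81 peaks. Within these runs the median gap between peak starts was 5.56 kb in siCHD4 and 120.1 kb in siMBD3, against 51.2 and 52.9 kb over the whole lists. The run peaks were weak in siCHD4, with a median fold of 4.07. Of these, 36.5% overlapped a siNC peak, against 56.6% of all siCHD4-specific peaks. In siMBD3 70.4% of run peaks did, near the 67.4% of all siMBD3-specific peaks.

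The longest siCHD4 run held 19 peaks on chromosome 1 from 144162452 to 144572981, and 17 of them lay in the first 100 kb. In the same span siMBD3 had 3 peaks, siMBD2 had 3, siNC had 6, siCHD5 had 11 and siCHD3 had 15. The next runs held 17 peaks on chromosome 7 from 61118075 to 61197982 and 15 on chromosome 5 from 44730760 to 49436765. Runs of 13 followed on chromosome 1 from 145305588 to 145366369 and on chromosome 8 from 86777672 to 86810996. In these spans, in that order, siCHD5 had 8, 12, 10 and 11 peaks and siCHD3 had 7, 5, 1 and 7. There siNC had 6, 10, 6 and 5 peaks, and siMBD3 had 2, 2, 1 and 2. As background, the spans on chromosomes 5 and 7 lie at the centromeres, and that part of chromosome 1 is known for duplicated gene copies. Signal of near-identical copies cannot be told apart there. Whether the run on chromosome 8 and the bins named below also lie in repeated sequence was not analysed. By bins of 1 Mb, siCHD4-specific peaks were most frequent on chromosome 8 from 86000001 to 87000000, with 38 of 49 siCHD4 peaks. That bin also held 44 peaks of siCHD5, 43 of siCHD3, 35 of siNC, 29 of siMBD2 and 18 of siMBD3. The bin on chromosome 5 from 69000001 to 70000000 followed, with 26 of 35 siCHD4 peaks. It held 37 peaks of siCHD3, 17 of siNC, 16 each of siCHD5 and siMBD2, and 12 of siMBD3.

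The longest siMBD3 run held 11 peaks over 2674 kb of chromosome 11 from 99491321 to 102165020, where siNC had 19 peaks, siCHD4 had 7 and siCHD5 had 20. Runs of 10 followed on chromosome 13 from 27546392 to 27949166 and from 103244312 to 106956240 and on chromosome 14 from 46719399 to 48148537. In each of these 4 runs, between 5 and 7 of the peaks overlapped a siNC peak, where 67.4% of all siMBD3-specific peaks did. By bins, siMBD3-specific peaks were most frequent on chromosome 16 from 30000001 to 31000000, with 20 of 49 siMBD3 peaks, against 45 peaks of siCHD4 in that bin. The bin on chromosome 17 from 38000001 to 39000000 held 16 of 33, and that on chromosome 19 from 6000001 to 7000000 held 15 of 25 (60.0%), against 14 siCHD4 peaks. In both lists a run counts peaks in a row of its own list and may still contain unpaired peaks of the other list.

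**Figure D4:**
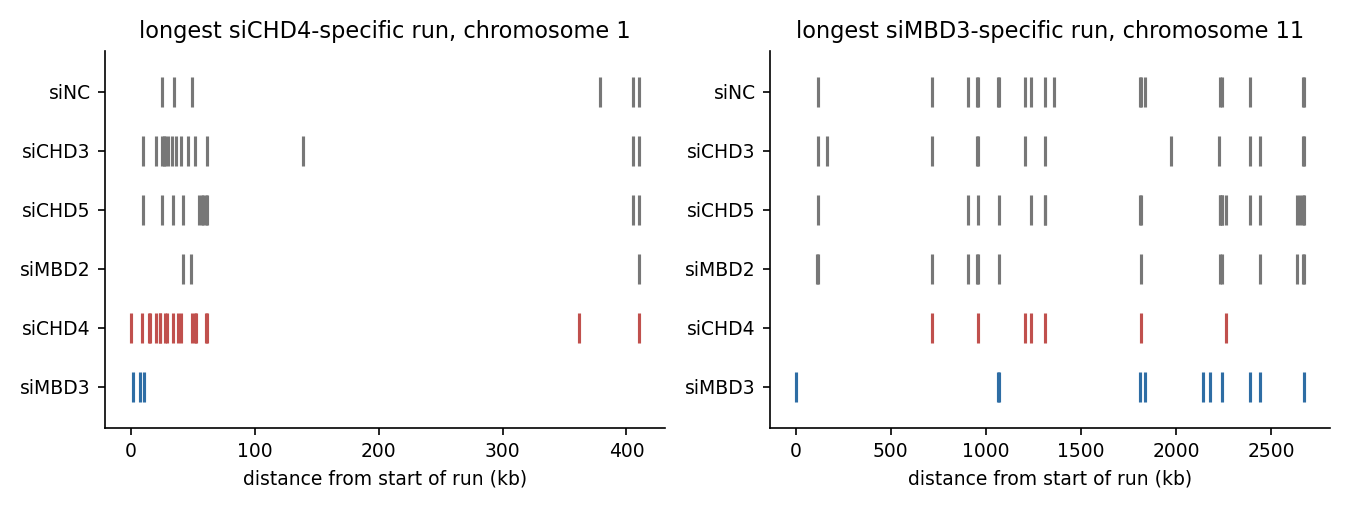
Positions of called peaks (ticks) in each of the 6 lists (y axis) along the longest run of siCHD4-specific peaks on chromosome 1 (left) and of siMBD3-specific peaks on chromosome 11 (right), as distance from the start of the run (x axis, kb). In the left span 17 of 19 siCHD4 peaks lie in the first 100 kb, siMBD3 has 3 peaks in the whole span, and the 11 peaks of the right run spread over 2674 kb.

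By chromosome, the specific share ran from 28.6% (chromosome 22) to 41.8% (chromosome 18) in siCHD4 and from 28.4% (X) to 40.7% (chromosome 18) in siMBD3. Chromosomes 18 and 4 were high in both lists, with 39.9% on chromosome 4 in siCHD4 and 39.7% in siMBD3, and chromosome 1 was low in both, with 29.3% and 29.0%. The largest gaps between the lists were on chromosomes 19, 13, 21 and X. On chromosome 19, 275 of 924 siCHD4 peaks were specific (29.8%, interval 26.8 to 32.8) and 363 of 1015 siMBD3 peaks (35.8%, 32.8 to 38.8). On chromosome 13, the shares were 34.2% (172 of 503, 30.1 to 38.5) in siCHD4 and 40.2% (225 of 560, 36.1 to 44.4) in siMBD3. The X chromosome went the other way, with 458 of 1346 siCHD4 peaks (34.0%, 31.5 to 36.6) and 359 of 1264 siMBD3 peaks (28.4%, 25.9 to 31.0). Autosomes gave 33.8% in siCHD4 and 34.8% in siMBD3 (interval 34.2 to 35.4), so that the X interval lay below that of the autosomes in siMBD3 and spanned it in siCHD4. The intervals of the 2 lists on X do not overlap, while those on chromosomes 13 and 21 do and those on chromosome 19 only just do (32.83 against 32.81). These gaps were picked as the largest of all chromosomes, with no allowance for that choice.

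**Figure D5:**
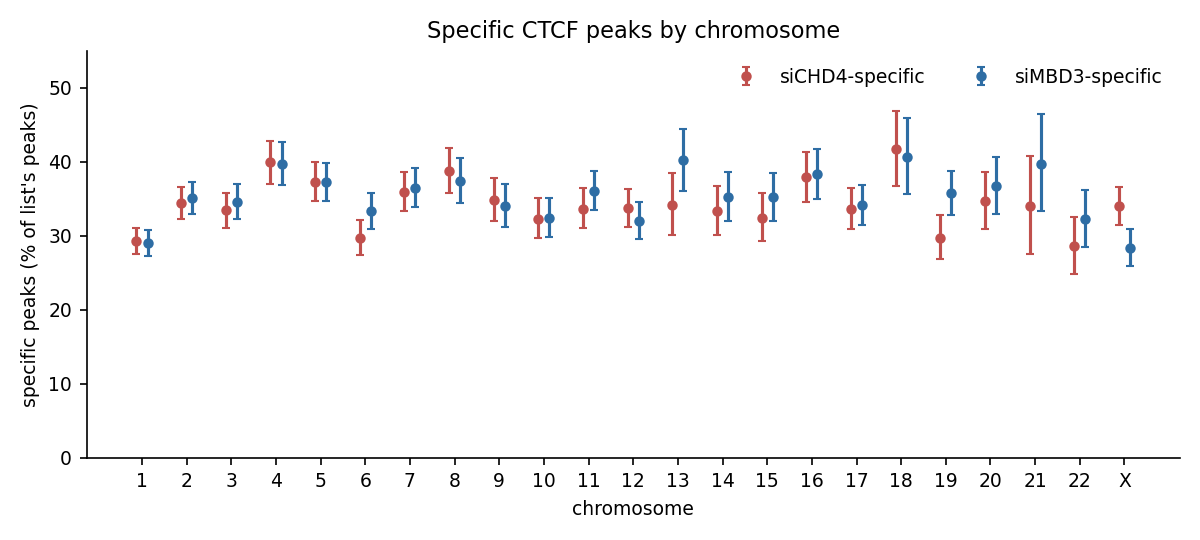
Share of specific peaks (y axis, % of the list's peaks on that chromosome) on chromosomes 1 to 22 and X (x axis) in the siCHD4 and siMBD3 lists, with exact 95% intervals as error bars. Both lists are high on chromosomes 4 and 18, and on X the siCHD4 share is 34.0% and the siMBD3 share 28.4%.

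Each of the 2 lists differed more from the other than from any further list in the series. Of siCHD4 peaks, 33.8% had no siMBD3 partner, against 32.4% with no siMBD2 partner (interval 31.8 to 33.0), 26.0% with no siCHD5, 22.7% with no siCHD3 and 16.8% with no siNC partner. Of siMBD3 peaks, 34.5% had no siCHD4 partner, against 28.6% with no siCHD3 partner (interval 28.0 to 29.1), 28.2% with no siMBD2, 19.5% with no siCHD5 and 13.4% with no siNC partner. The lists searched differ in length, from 25358 peaks in siCHD4 to 36270 in siNC, and a longer list offers more partners. The lists closest in length are siCHD4, siMBD3 and siMBD2 (26087 peaks).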

How the data were processed

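CTCF immunoprecipitates and inputs of 6 conditions were sequenced (36 samples in 12 groups), after selection of fragments of 200 to 500 bp and 18 PCR cycles, per the labels' protocols. The tools are MACS2 2.1.2, Bowtie2 2.3.4, deepTools 3.5.0, SAMtools 1.9, bedtools 2.25.0 and FastQC 0.11.7 with build hg19, per the submitters' processing notes. Roles and settings of the tools are not given in the sources used here. As deposited by the authors, there was 1 peak list per condition, labelled as 3 replicates called together. Columns hold the deposited fold enrichment, the deposited −log10 p and −log10 q, a deposited display score that was not used, and the summit offset. Fold was read as the ratio of summit to local background, with 1 fragment added to each.

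Rows of equal start and end made 1 peak, and its summit of highest fold was kept. Fold and p of each peak were solved for its summit pileup and local background, with p as a Poisson tail, and a whole pileup matched p within 0.01% for 100% of peaks. The lowest background stands for depth. Total read counts were not used here. Runs of 8 or more were set after the data were seen. Promoters, genes, motifs and sequences were planned but not analysed, because no hg19 genome was used here. The named regions are the 10 specific peaks of highest fold per list with no peak of the other list within 1 kb, the 10 shared pairs best ranked in both lists, and the 5 longest runs and the 5 fullest bins of 1 Mb per list, of which the leading ones are printed. Members and lists were chosen with earlier results of these data known. Computation used Python 3.11.15, numpy 2.4.6, pandas 2.3.3, scipy 1.17.1 and matplotlib 3.10.9, and overlap counts and the pileup solution were tested on simulated data.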

Additional observations from a re-analysis of the deposited data

Results flagged for a closer look

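Peaks outside chromosomes 1 to 22 and X entered no comparison above, and some were more numerous than in the control list. The mitochondrial genome held 9 siCHD4 peaks and 7 siMBD3 peaks, against 0 in siNC and 0 in siCHD5, with 8 in siCHD3 and 2 in siMBD2. The alternate haplotypes of chromosome 6, which repeat the region of the tissue-compatibility genes, held 427 siCHD4 peaks and 401 siMBD3 peaks. Their counts were 344 in siNC, 337 in siCHD5, 364 in siMBD2 and 753 in siCHD3. Unplaced contigs went the other way, with 175 siCHD4 and 169 siMBD3 peaks against 187 in siNC. They held 207 peaks each in siCHD3 and siCHD5, and 189 in siMBD2. Each count is of 1 pooled list, and no test of these differences was made.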

How the results depend on the processing

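No paired analysis was possible because each list pools its 3 replicates, and for the same reason no replicate could be left out. Values below are the siCHD4 share specific, the siMBD3 share specific, and then the share in siNC of siCHD4-specific and of siMBD3-specific peaks. As reported they were 33.8%, 34.5%, 56.6% and 67.4%. Requiring a −log10 q of 5 or more on both sides gave 30.3%, 30.0%, 82.5% and 87.5%, and requiring 10 or more gave 41.0%, 35.3%, 95.2% and 96.9%. In these settings a peak whose partners all fell below the threshold counted as specific too. Requiring 10 or more in the counted list only gave 13.5%, 16.5%, 89.9% and 94.98%. Reciprocal overlap of 50% gave 37.5%, 38.6%, 52.6% and 62.4%, summits within 100 bp gave 36.0%, 37.2%, 52.1% and 64.1%, and any peak within 1 kb gave 31.7%, 33.2%, 60.1% and 68.6%. Lists of equal length gave 34.3%, 33.7%, 56.8% and 69.8%, and leaving out peaks over 1 kb gave 34.2%, 36.0%, 56.4% and 68.6%. Leaving out wide peaks also took partners away. The siMBD3-specific peaks rose from 8917 to 9293, though no siMBD3 peak over 1 kb was specific. Scaling siCHD4 to the siMBD3 coverage gave 19.5% and 83.6% for siCHD4 and, since siMBD3 was not scaled, no other siMBD3 values. Searching the scaled siCHD4 list for siMBD3 peaks too (chosen after the data were seen) gave 19.5%, 43.1%, 83.6% and 71.1%. All contigs, and leaving out runs of 8 or more (chosen after the data were seen), moved none of the 4 values beyond their intervals. Over the 12 settings that give both lists a value of their own, the one reported included, the siMBD3 share was the higher in 9. The exceptions were −log10 q of 5 or more and of 10 or more on both sides and lists of equal length. The siNC share was higher for siMBD3-specific peaks in 11, the exception being the scaled list, which loses weak peaks on the siCHD4 side only. The cause of these moves was not tested. Depth is known from background coverage only, and a peak that was not called may still be bound.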
